A study of Mus musculus with 3 samples.

Results

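The mitosis genes described here are 39 genes whose products carry cells from the end of DNA replication through chromosome separation to cell division. They were taken by gene symbol from a list and not by their values. The list itself was chosen with earlier results of these data known. All 39 symbols were found among the 30406 gene IDs that the 3 libraries share. RNA was counted as UMIs (unique molecular identifiers, 1 for each captured transcript molecule) in single cells from the thymus, by 10x Genomics single-cell RNA sequencing. The cells were sorted as invariant natural killer T (iNKT) cells, T cells that recognise lipids on the molecule CD1d. The sort took CD1d-tet+ and TCRβ+ cells that were NK1.1- and CD24-, after removal of CD8+ cells. Other cells were also found in it, as given below. The C57BL/6 library came from mice of 7 weeks that received no transplant. The other 2 libraries came from mice of 16 weeks, 9 weeks after bone marrow transplantation (BMT) between haploidentical mice: F1 (C57BL/6 x BALB/c) recipients were lethally irradiated and given C57BL/6 marrow depleted of T cells, either alone (BM only, labelled Non-GVHD) or with C57BL/6 splenic cells that cause graft-versus-host disease (BM + Spl, labelled GVHD). Each condition was 1 library from several pooled mice, so no comparison has a replicate check and no test between conditions was possible. Intervals given here are exact 95% intervals that cover counting error only (Poisson for UMIs, binomial for UMI ratios, Clopper-Pearson for shares of cells), except that ratios of shares have a Katz interval. UMIs of 1 dividing cell come together, so UMI intervals are narrower than the true error.

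Entry into mitosis is driven by cyclin B bound to the kinase Cdk1, and exit by the anaphase-promoting complex, an enzyme that marks cyclins and securin for destruction. Between these steps the chromosomes condense, kinetochores attach them to spindle microtubules, the spindle checkpoint holds the cell until all are attached, and the midzone of the spindle directs cytokinesis. Most of these transcripts are absent from resting cells and accumulate late in the cycle. In the thymus, iNKT precursors divide strongly after selection and then settle into the effector lineages NKT1, NKT2 and NKT17, named for the helper T cells whose cytokines they share.

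Promoters of such genes are known for the cell cycle genes homology region (CHR), which the MuvB complex binds, and for the CCAAT box, which NF-Y binds. RefSeq promoters (GRCm38.p6, 250 bases before to 50 after the start) were found for 34 of the 39 members. The CHR letters (TTTGAA or TTCGAA, either strand) stood in 26 of the 34 member promoters (76.5%), against 19.2% of 32851 promoters of the same length. CCAAT, either strand, was in 26 member promoters (76.5%) against 37.4% of all, and 18 (52.9%) held it 2 or more times, against 11.7% of all. Both words were found in 23 (67.6%), against 7.53% of all promoters. An E2F-like word (TTCGCGC or TTGGCGC) was in 4 member promoters (11.8%) against 3.89%. Matches of the CHR and CCAAT words may overlap, and a match describes letters in the window, not a bound site.

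The 200 bases from 150 before to 50 after the start are shown for 4 members that the results below turn on, with CHR and CCAAT matches on either strand in capitals: Ccnb2 (chr9:70421505-70421704, minus strand) and Top2a (chr11:99024140-99024339, minus strand), which lie near opposite ends of the order by DNA replication genes, Ube2c (chr2:164769779-164769978, plus strand), which differed most between the transplant libraries in the NKT1 gate, and Cks2 (chr13:51645082-51645281, plus strand), which differed least over all cells.
Ccnb2: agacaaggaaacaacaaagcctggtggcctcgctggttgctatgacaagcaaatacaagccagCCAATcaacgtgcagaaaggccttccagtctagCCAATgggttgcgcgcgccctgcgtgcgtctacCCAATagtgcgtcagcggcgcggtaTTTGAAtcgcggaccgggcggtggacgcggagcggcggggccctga
Top2a: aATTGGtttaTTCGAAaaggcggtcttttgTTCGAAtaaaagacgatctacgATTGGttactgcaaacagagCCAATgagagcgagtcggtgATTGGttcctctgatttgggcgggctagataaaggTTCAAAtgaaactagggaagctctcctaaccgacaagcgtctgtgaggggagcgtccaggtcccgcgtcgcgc
Ube2c: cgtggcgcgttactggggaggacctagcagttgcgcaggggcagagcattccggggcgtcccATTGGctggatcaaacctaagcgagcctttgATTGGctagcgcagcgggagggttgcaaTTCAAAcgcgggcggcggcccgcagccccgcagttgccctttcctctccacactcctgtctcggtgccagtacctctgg
Cks2: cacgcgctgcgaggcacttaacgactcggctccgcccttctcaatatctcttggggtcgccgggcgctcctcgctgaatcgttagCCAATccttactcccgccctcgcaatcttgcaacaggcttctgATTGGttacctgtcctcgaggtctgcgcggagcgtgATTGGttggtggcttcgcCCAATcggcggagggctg
The Ccnb2 window held 1 CHR match and 3 CCAAT matches, the Top2a window 3 and 4, and the Ube2c window 1 and 2. Cks2 had 4 CCAAT matches and no CHR match in its window.

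Cells with more than 200 and fewer than 6000 genes and under 10% mitochondrial UMIs were kept, 4434 in C57BL/6, 5970 in BM only and 5557 in BM + Spl, with medians of 12074, 4721 and 6463 UMIs per cell over the shared genes. The C57BL/6 matrix was written by another Cell Ranger version than the transplant matrices (3.0.2 against 7.0.0, by their headers), had a median of 6.48% mitochondrial UMIs against 0.687% and 0.511%, and came from younger mice. The paper names library kits for both transcript ends and does not say which library had which. Differences between C57BL/6 and the transplant libraries therefore cannot be told apart from these, nor from a difference in kit if there was one. BM only and BM + Spl shared 43 cell barcodes, and neither shared any with C57BL/6. Lineages were gated on UMIs of marker genes in each cell: NKT1 on Tbx21, Cxcr3, Nkg7 and Xcl1, NKT2 on Zbtb16, Il17rb, Il4 and Il13, and 3 other groups on Foxp3 (regulatory T cells), Cd8b1 (CD8 T cells) and Siglech (plasmacytoid dendritic cells). Levels are given as CPM, a gene's UMIs scaled to the same total of UMIs in every group of cells. Other markers of NKT1 cells summed to 1445 CPM in the NKT1 gate of BM + Spl but to 3006 in its Cd8b1+ cells, and other markers of NKT2 cells to 1243 in the NKT2 gate of BM only and 1277 in its Foxp3+ cells, so the groups are called gates here and not cell types. In C57BL/6 the Foxp3+, Cd8b1+ and Siglech+ gates held 3, 10 and 1 cells and were not compared. The Foxp3+ gate held 10.4% of BM only cells and 12.1% of BM + Spl cells. Cd8b1+ cells made up 2.31% and 5.69%, and Siglech+ cells 1.71% and 2.81%. A further 16.9% and 29.4% were ungated. Values over all cells of these 2 libraries are therefore not those of iNKT cells alone.

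The members were concentrated in few cells. After each cell was thinned at random to 2700 UMIs, leaving out the 15, 959 and 568 shallower cells of C57BL/6, BM only and BM + Spl, between 57.03% and 61.5% of cells had no UMI of any of the 39 genes. A long tail of cells had many, up to 28 members in C57BL/6, 25 in BM only and 28 in BM + Spl. Cells with a UMI of 5 or more members are called mitosis-high here. They carried 15.5, 15.7 and 16.2 member UMIs per cell in C57BL/6, BM only and BM + Spl, against 0.610, 0.533 and 0.612 in the other cells, and held 70.9%, 54.7% and 66.7% of all member UMIs. Mitosis-high cells also had more RNA, with medians of 21069, 12988 and 14572 UMIs before thinning against 11349, 5195 and 6740 in the other cells.

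**Figure D1:**
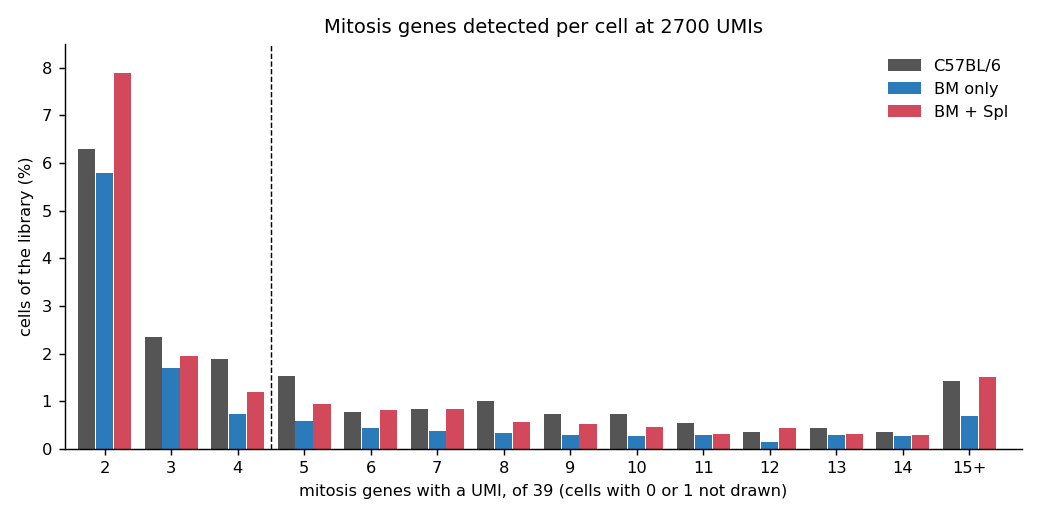
Percentage of cells of each library (y axis) by the number of the 39 mitosis genes with a UMI after thinning to 2700 UMIs (x axis, cells with 0 or 1 not drawn), with bars in grey for C57BL/6, blue for BM only and red for BM + Spl. The dashed line marks the limit of 5 members, and the last bars show that 1.43%, 0.679% and 1.503% of cells had 15 or more.

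The share of mitosis-high cells was 8.71% in C57BL/6 (interval 7.90 to 9.58, 385 of 4419 cells), 3.93% in BM only (3.41 to 4.51, 197 of 5011) and 7.02% in BM + Spl (6.32 to 7.76, 350 of 4989). The BM + Spl share was above that of BM only by 0.84 on the log2 scale (0.59 to 1.08). Without thinning the shares were 19.7%, 6.78% and 11.98% at the unequal depths given above. The thinned shares depend on the limit chosen, and with 3 or more members they were 12.9%, 6.37% and 10.2%, in the same order.

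Of the NKT1 and NKT2 gates, NKT1 had the lower share of mitosis-high cells, at 3.43% in C57BL/6 (2.55 to 4.51), 1.76% in BM only (1.28 to 2.36) and 3.67% in BM + Spl (2.54 to 5.12). In the NKT2 gate it was 11.0% (9.76 to 12.3), 9.18% (7.33 to 11.3) and 11.2% (9.73 to 12.9). The NKT2 share was above the NKT1 share in each library, by 1.68 (1.25 to 2.11), 2.38 (1.86 to 2.91) and 1.61 (1.09 to 2.13) on the log2 scale. NKT2 cells were also the deeper ones before thinning, with median depths of 15061, 9208 and 10040 UMIs against 6816, 4381 and 4942 in NKT1. The gates used these unequal depths. With gates set on the thinned counts, the NKT2 shares were 5.86% in C57BL/6, 8.92% in BM only and 8.56% in BM + Spl, so C57BL/6 was then lowest.

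Outside the iNKT gates, Foxp3+ cells had 7.60% mitosis-high cells in BM only (5.46 to 10.3) and 8.68% in BM + Spl (6.55 to 11.2), close to the NKT2 values, from which they differed by less than counting error. Siglech+ cells, a non-T cell type with median depths of 5988 and 6042 UMIs, gave the low level of 2.25% (0.27 to 7.88, 2 of 89) and 2.14% (0.44 to 6.13, 3 of 140). The NKT1 shares of both BM only and BM + Spl lie within these wide intervals. Shares this low may include RNA from other cells, and its part was not tested. Cd8b1+ cells had 1.04% (1 of 96) and 4.68% (13 of 278), with intervals that overlap.

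**Figure D2:**
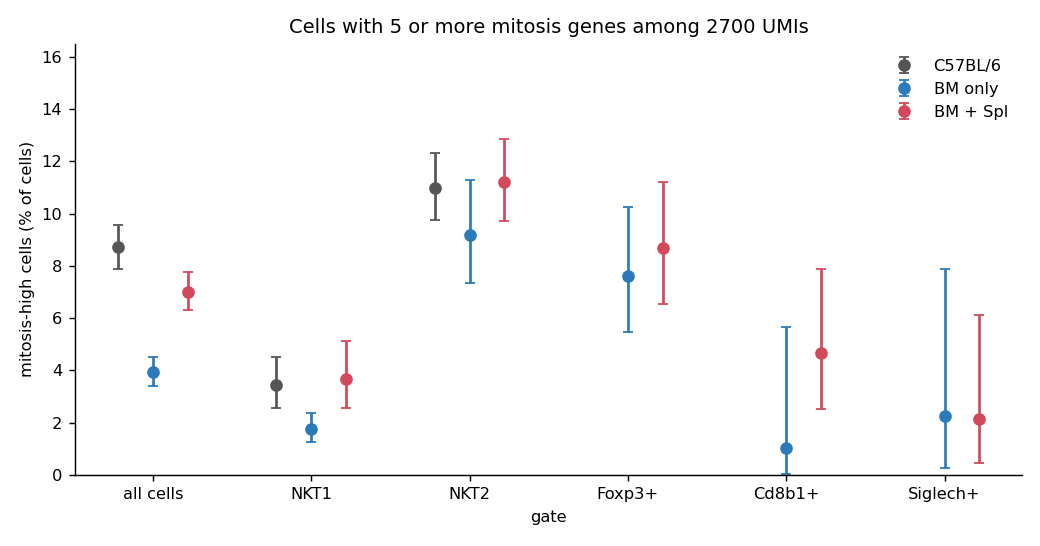
Share of mitosis-high cells in percent (y axis) in all cells and by gate (x axis), with points for C57BL/6 in grey, BM only in blue and BM + Spl in red and bars for the 95% Clopper-Pearson interval. The NKT2 points of the 3 libraries lie at 11.0%, 9.18% and 11.2% with overlapping bars, while BM only lies lowest in all cells and in NKT1.

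Between the transplant libraries, the mitosis-high share of BM + Spl was above that of BM only by 1.06 (0.42 to 1.71) on the log2 scale in the NKT1 gate. The difference was 0.29 in NKT2 (-0.07 to 0.65) and 0.19 in Foxp3+ cells (-0.38 to 0.77), where the interval includes 0. Whether these differences themselves differ between gates was not tested, and the NKT1 and NKT2 intervals overlap. The mix of gates differed too, since the NKT1 gate held 47.4% of BM only cells and 17.4% of BM + Spl cells and the NKT2 gate 15.5% and 29.9%. With its own rates and the gate mix of BM only, BM + Spl would have 5.93% mitosis-high cells, and with its own rates and the mix of BM + Spl, BM only would have 5.34%, both between the measured 3.93% and 7.02%. With gates set on the thinned counts, the NKT2 share was 8.56% in BM + Spl and 8.92% in BM only, the reverse order. In Foxp3+ cells it was 5.60% and 6.57%, also reversed, and in NKT1 4.26% and 1.63%, in the same order. The NKT2 and the Foxp3+ intervals of the 2 libraries overlap there.

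The NKT2 values depend on the cells with the most UMIs. In the NKT2 gate, 69.6% of the mitosis-high cells of BM only (55 of 79) and 41.2% of those of BM + Spl (75 of 182) were among the 6% of their library's cells with the most UMIs, a part that took 23.2% of the thinned NKT2 cells of BM only and 11.7% of those of BM + Spl. Without these cells the NKT2 share was 3.63% in BM only (2.34 to 5.35) and 7.48% in BM + Spl (6.17 to 8.96), and the intervals no longer overlap. Mitosis-high cells have more UMIs than others, so leaving out deep cells removes more of them, and no doublet caller was run.

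Summed over all cells, the 39 members had 1099 CPM in C57BL/6 (1090 to 1107), 635.5 in BM only (627.1 to 643.9) and 951.4 in BM + Spl (942.2 to 960.7). All 39 were higher in BM + Spl than in BM only, each with an interval above 0 on the log2 scale, and the median member differed by 0.69 while the median of 11714 genes with 100 or more UMIs differed by 0.0083. Of the 39 members, 23 were at least 1.5-fold higher and 0 at least 1.5-fold lower, beside 5.98% and 6.58% of all genes. In bulk sums such as these, more dividing cells and more RNA per dividing cell cannot be told apart.

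Among the cyclins, Cdk1 and the proteins that bind it, the 7 members had a median log2 difference of 0.54 between the transplant libraries. Ccna2, cyclin A, which acts in DNA replication and early mitosis, had 16.3 CPM in C57BL/6, 14.5 in BM only and 25.2 in BM + Spl, a difference of 0.80 (0.65 to 0.96) between the last 2. Ccnb1, cyclin B, had 19.1, 6.64 and 10.99, and Cdk1 itself had 23.5, 16.95 and 27.4. For these 3 genes BM only was the lowest library, but C57BL/6 was highest for Ccnb1 and below BM + Spl for the other 2. Cks2, a small subunit that binds Cdk1, was the member that differed least, at 71.2 in C57BL/6, 92.3 in BM only and 100.6 in BM + Spl, a difference of 0.12 (0.06 to 0.19). The related Cks1b differed by 0.54 (0.46 to 0.62), and Cdkn3, a phosphatase that acts on Cdk kinases, by 0.48 (0.17 to 0.79).

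The 2 members that work with the anaphase-promoting complex were Ube2c, the enzyme that brings it ubiquitin, and Cdc20, which activates it. Ube2c had 41.0 CPM in C57BL/6, 24.2 in BM only and 45.4 in BM + Spl, a difference of 0.91 (0.79 to 1.03). Cdc20 had 29.9, 14.9 and 21.4, a difference of 0.52 (0.36 to 0.68). Both were lowest in BM only, and BM + Spl was above C57BL/6 for Ube2c and below it for Cdc20.

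The mitotic kinases and their partners had a median difference of 0.70. Plk1, the kinase that acts in centrosome maturation and later in cytokinesis, had 8.81, 5.46 and 10.0 CPM in C57BL/6, BM only and BM + Spl, a difference of 0.88 (0.63 to 1.13). The chromosomal passenger complex was represented by its kinase Aurkb, which differed by 0.70 (0.52 to 0.88), and by its subunits Birc5 and Cdca8, which differed by 0.71 (0.61 to 0.80) and 0.80 (0.67 to 0.94). Aurka, the kinase of the spindle poles, differed by 0.30 (0.03 to 0.57), less than its activator Tpx2 at 0.66 (0.50 to 0.81).

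Of the spindle checkpoint kinases and the related Bub1b, Ttk differed by 0.93 (0.51 to 1.36), Bub1 by 0.75 (0.38 to 1.13) and Bub1b by 0.41 (0.17 to 0.65), at low levels of 1.95 to 12.7 CPM over the 3 libraries. At the centromere and kinetochore, Cenpf had the largest difference of any member, with 32.2 CPM in C57BL/6, 8.22 in BM only and 16.7 in BM + Spl, or 1.02 (0.82 to 1.22). The Ndc80 complex subunits Ndc80 and Nuf2, which bind microtubules, differed by 0.77 (0.57 to 0.97) and 0.80 (0.46 to 1.15). Cenpa, the histone H3 variant that marks centromeres, had 119.7, 56.3 and 81.9, a difference of 0.54 (0.46 to 0.62). The kinetochore motor Cenpe differed by 0.56 (0.34 to 0.78) and the spindle protein Knstrn by 0.25 (0.03 to 0.47), the smallest after Cks2.

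Spindle motors and microtubule proteins had a median difference of 0.65 and ran from Ckap2 at 0.44 (0.19 to 0.69) to Nusap1 at 0.80 (0.62 to 0.99). The motor Kif11, which pushes spindle poles apart, had 14.95, 11.4 and 18.9 CPM in C57BL/6, BM only and BM + Spl. Between them lay the microtubule depolymerase Kif2c, the hyaluronan receptor and spindle protein Hmmr, and Tacc3, at 0.57, 0.78 and 0.49. The midzone and cytokinesis members Prc1, which bundles midzone microtubules, Kif20a and Anln differed by 0.76, 0.62 and 0.62, and the centralspindlin pair Kif23 and Racgap1 by 0.35 (0.13 to 0.58) and 0.33 (0.18 to 0.48). Of the remaining 4, Top2a, the topoisomerase that untangles DNA, had 93.6, 38.6 and 65.7, a difference of 0.77 (0.67 to 0.86), and Mki67, the Ki-67 protein that coats chromosomes, had 97.1, 31.1 and 45.6, a difference of 0.55 (0.44 to 0.66). Esco2, which joins sister chromatids, and Cdca3 differed by 0.86 (0.66 to 1.06) and 0.78 (0.62 to 0.95).

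In the NKT1 gate the differences were larger. All 39 members were higher in BM + Spl, 34 of them with an interval above 0, and of the 27 with 100 or more UMIs 23 were at least 1.5-fold higher, beside 9.97% of 9162 genes. The median member differed by 1.16. Ube2c had 7.86 CPM in this gate of BM only and 38.3 in that of BM + Spl, a difference of 2.28 (1.95 to 2.63), with 19.4 in C57BL/6. Among other members, Prc1 had 4.67 and 13.1, a difference of 1.49 (0.99 to 1.99), and Cenpf 4.90 and 15.1, a difference of 1.62 (1.15 to 2.10). Cks2 had 81.4 and 91.0, a difference of 0.16 (0.01 to 0.31). Markers of other cells differed in this gate too. The 5 further markers of regulatory T cells (Il2ra, Ctla4, Ikzf2, Tnfrsf18 and Tnfrsf4) summed to 294.9 CPM in BM only and 1049 in BM + Spl, and the 5 of NKT2 cells to 428.1 and 749.2, while the 5 of NKT1 cells summed to 3244 and 1445 and the 5 of CD8 T cells to 1508 and 522.6. None of these markers was at 0, and their part in the difference was not tested.

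In the NKT2 gate the same genes differed little. The median member was 0.15 higher in BM + Spl, 33 of 39 were above 0 and 13 had an interval above 0, and 2 members, Cenpf and Nuf2, were at least 1.5-fold higher, beside 1.07% of 9469 genes. Cenpf had 11.8 CPM in BM only and 18.3 in BM + Spl (0.63, 0.32 to 0.96), and Nuf2 4.31 and 6.83 (0.66, 0.14 to 1.22). Ube2c had 49.7 and 53.4 (0.10, -0.06 to 0.27), and Ccnb1 11.9 and 12.8 (0.10, -0.24 to 0.44), differences smaller than counting error. The members below 0 were Ckap2, Bub1b, Kif20a, Knstrn, Cks2 and Kif2c, each with an interval that includes 0. Without the 6% of cells with the most UMIs in each library, the median member difference in this gate was 0.96 and not 0.15. That cut took 69.6% of the NKT2 mitosis-high cells of BM only and 41.2% of those of BM + Spl. How much of the change comes from this unequal removal was not tested.

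**Figure D3:**
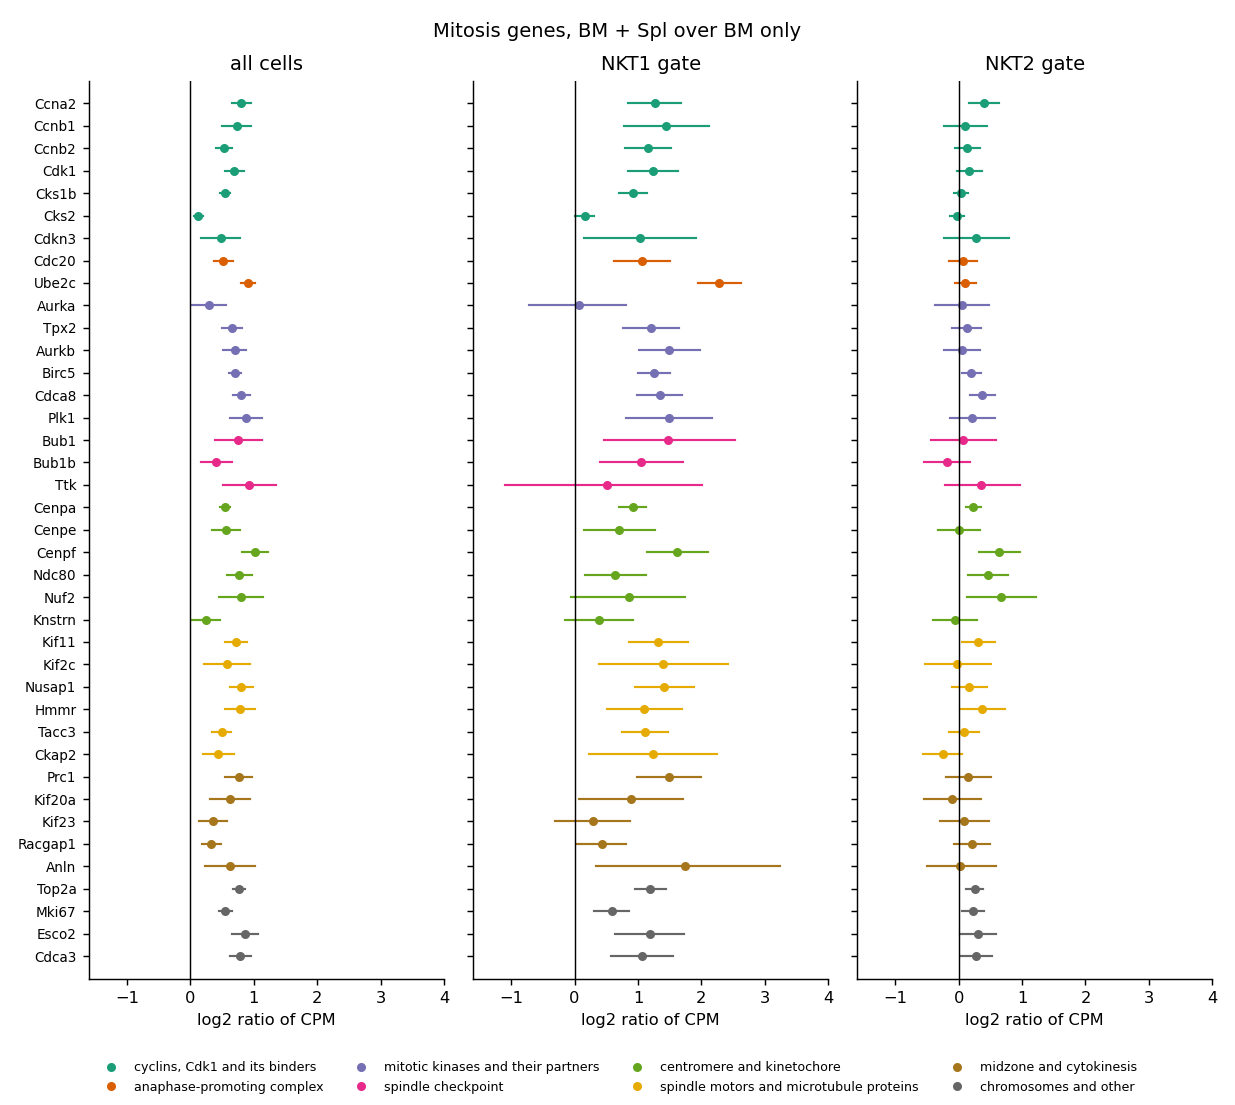
Log2 ratio of CPM, BM + Spl over BM only (x axis), for each of the 39 mitosis genes (y axis, coloured by role) in all cells, the NKT1 gate and the NKT2 gate, with lines for exact 95% counting intervals. The points lie right of 0 for all 39 genes in the first and second panels and cluster near 0 in the third, with Ube2c at 2.28 in the NKT1 gate and 0.10 in the NKT2 gate.

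The beta chain of cells in the NKT1 gate was looked at through a list of segments chosen for iNKT cells (Trbv1, Trbv13-1, Trbv13-2, Trbv13-3, Trbv12-2 and Trbv29), against all others. A listed segment does not show an iNKT receptor. One was also found in 21.2% of the thinned Foxp3+ cells of BM only and 23.0% of those of BM + Spl, and in 22.9% and 29.9% of their Cd8b1+ cells. Cells with such a segment made up 78.1% of the thinned NKT1 gate of BM only but 36.4% of that of BM + Spl. Among them the share of mitosis-high cells was 1.57% in BM only (1.06 to 2.24) and 4.59% in BM + Spl (2.59 to 7.45). Cells with another segment made up 6.70% and 46.4% of the gate, and their shares were 3.05% (0.997 to 6.97, 5 of 164) and 2.64% (1.32 to 4.67, 11 of 417), with intervals that overlap. Whether the difference between the libraries depends on the segment was not tested. In the NKT2 gate, where the segments were found in 82.6% and 81.8% of cells, the shares were 9.70% (7.63 to 12.1) and 11.3% (9.66 to 13.1). Over all gates, cells with these segments had 3.88% (3.24 to 4.61) and 9.39% (8.25 to 10.6) mitosis-high cells, and cells with another segment 5.08% (3.62 to 6.91) and 4.74% (3.70 to 5.95). In C57BL/6, 80.7% of cells had no assigned segment, against 20.8% in BM only and 22.3% in BM + Spl, and these shares were not compared with it.

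Within mitosis-high cells the members' make-up was close between the transplant libraries. The median member differed by 0.04 on the log2 scale, and 35 of 39 differed by less than counting error. The 4 others were Kif11 at 0.48 (0.03 to 0.94), Ube2c at 0.41 (0.13 to 0.71), Top2a at 0.28 (0.02 to 0.54) and Cenpa at -0.23 (-0.45 to -0.0024). These cells were chosen by the same UMIs, so this describes them and tests nothing.

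Members differed in how far their UMIs were confined to mitosis-high cells, a share that the limit of 5 members partly sets. Kif2c had 100%, 96.4% and 94.7% of its UMIs there in C57BL/6, BM only and BM + Spl, and Hmmr 89.6%, 89.4% and 94.4%. Cks2 had 41.5%, 15.4% and 31.4%, the lowest of the members in each library, and Cks1b had 52.1%, 38.4% and 44.5%. Cks2, the member that differed least between BM + Spl and BM only over all cells, was thus also the one most found in cells with few other mitosis genes.

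Comparing gates within a library, all 39 members were higher in NKT2 than in NKT1 in C57BL/6 and BM only and 38 in BM + Spl, where Prc1 was 0.08 lower. At least 1.5-fold higher were 36 of 39 members in C57BL/6 (beside 12.8% of genes), 30 of 32 with 100 or more UMIs in BM only (15.5%) and 28 of 38 in BM + Spl (11.1%), with median log2 differences over the 39 of 1.06, 1.76 and 0.75. Ube2c had 7.86 CPM in NKT1 and 49.7 in NKT2 of BM only. In BM + Spl the same gene had 38.3 and 53.4. Foxp3+ cells were close to NKT2 cells, with median member differences of 0.07 in BM only and 0.32 in BM + Spl. The medians of all genes tested were 0.068 and 0.045. In BM only 23 members were above 0 and 16 below, and in BM + Spl 33 above and 6 below. Among those above, Foxp3+ cells of BM + Spl had levels of Aurkb (34.0), Birc5 (103.4), Ccna2 (46.1) and Prc1 (23.8) above those of the NKT1 gate. In NKT2 these were 17.96, 72.9, 30.03 and 12.4. Of the spindle motors and microtubule proteins, the lowest was at -0.74.

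**Figure D4:**
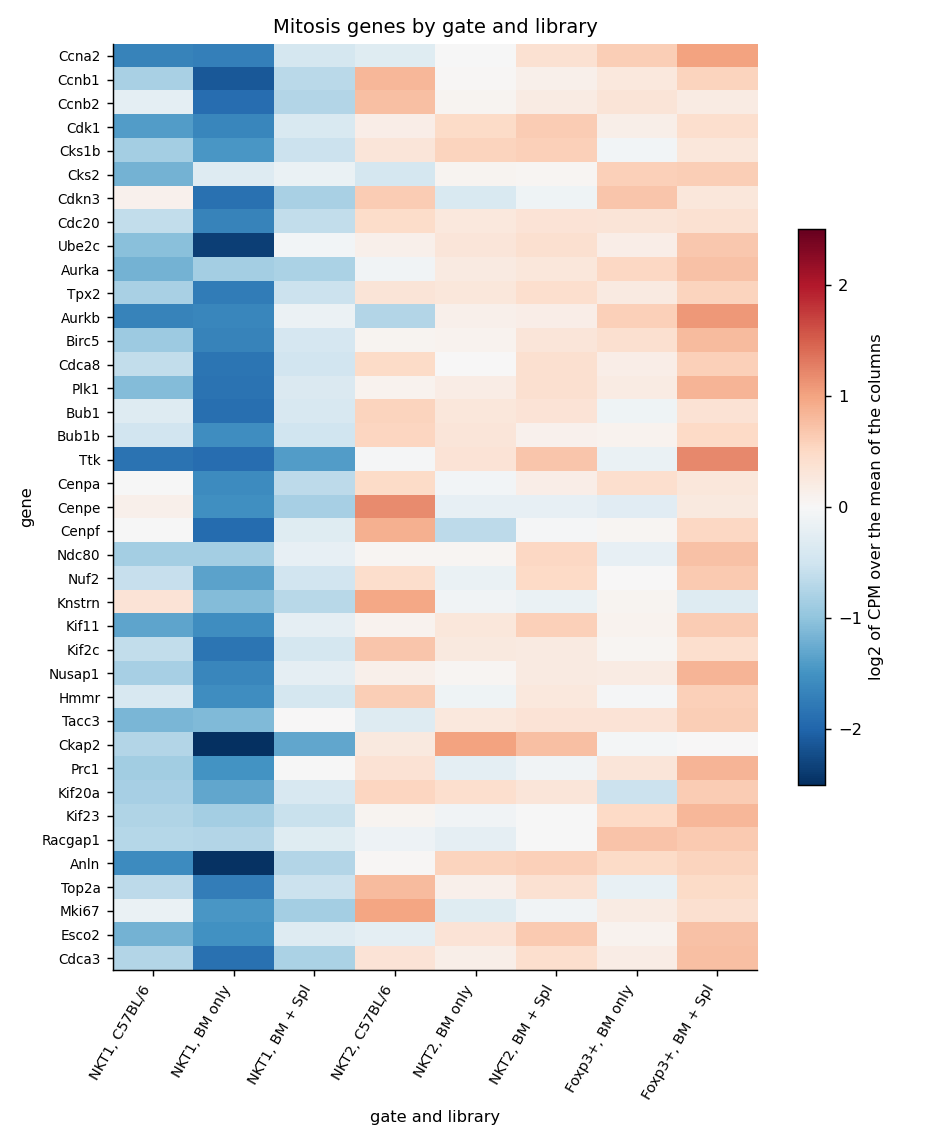
Log2 of CPM of each mitosis gene (rows, by role) over its mean across 8 combinations of gate and library (columns). The NKT1 column of BM only is the bluest, and Foxp3+ cells of BM + Spl are red for Aurkb and Ccna2.

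Against C57BL/6, with which it differs in age, treatment, depth and software and perhaps in library kit, BM only was lower for most members. It shares the BM only library with the comparison above, so the 2 are not independent. Over all cells, 24 of 39 members were at least 1.5-fold lower and 0 at least 1.5-fold higher, beside 15.2% and 31.0% of 11549 genes, and the median member had a log2 difference of -0.76 while the median of all genes was 0.18. The largest differences were in Cenpf (-1.97), Cenpe (-1.96), Mki67 (-1.64), Knstrn (-1.55) and Ccnb1 (-1.52). Cks2 (0.37, 0.31 to 0.44) and Aurkb (0.34, 0.14 to 0.54) were higher in BM only. With totals that leave out mitochondrial and ribosomal protein genes, these 2 were at 0.096 and 0.064, and 31 members were at least 1.5-fold lower.

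In the NKT2 gate alone, the median member had a log2 difference of -0.13, BM only over C57BL/6, with 11 members at least 1.5-fold lower and 4 at least 1.5-fold higher, beside 15.4% and 22.9% of 10111 genes. The centromere and kinetochore group had a median of -0.84 there, and Cenpe had 32.9 CPM in C57BL/6 and 12.5 in BM only. Ckap2 went the other way, from 9.18 to 15.58, and Aurkb from 9.62 to 17.3. Within mitosis-high cells too, Aurkb was higher in BM only by 1.69 (1.08 to 2.32) and Knstrn lower, at -1.42 (-2.09 to -0.81), so these members differed from each other by more than counting error.

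The members were also placed along the cell cycle by DNA replication genes. A cell with a UMI of 5 or more of 43 such genes at 2700 UMIs is called S-high here. Of mitosis-high cells, 45.5% were S-high in C57BL/6 (40.4 to 50.6), 73.6% in BM only (66.9 to 79.6) and 71.7% in BM + Spl (66.7 to 76.4). C57BL/6 was thus lower, and the transplant libraries differed by less than counting error. In Foxp3+ cells of BM + Spl the share was 90.4% (79.0 to 96.8), above the 71.4% (64.3 to 77.9) in NKT2 cells of that library. BM only had no such gap, with 74.4% (57.9 to 87.0) in Foxp3+ and 73.4% (62.3 to 82.7) in NKT2 cells.

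For each member, the part of its UMIs in mitosis-high cells that lay in S-high cells was then taken as its place. Esco2 was first or second in each library, with 98.1%, 98.0% and 94.6% in C57BL/6, BM only and BM + Spl. Aurkb (90.0%, 85.2% and 93.0%), Top2a (86.3%, 86.6% and 91.7%), Nusap1 and Prc1 followed, with Anln near them on few UMIs. At the other end Cenpa had 30.5%, 42.6% and 42.7%, and Ccnb2, the other B-type cyclin, 28.9%, 52.9% and 47.1%. Cdkn3, Knstrn, Ccnb1 and Cdc20 came next by the mean of the 3 libraries. They were not close to Cenpa in every library. Cdc20 had 62.7% (51.3 to 73.0) in BM only, and Ccnb1 (49.7 to 73.2) and Knstrn (47.2 to 75.3) each had 62.0% in BM + Spl. Ccna2 (68.1%, 81.7% and 87.9%) lay well above the B-type cyclins in all 3 libraries. Neighbours such as Ccnb1 (19.1 to 36.0 in C57BL/6) and Ccnb2 (23.8 to 34.4) had overlapping intervals. The part is bound up with the share of the library's mitosis-high cells that are S-high, which was 45.5%, 73.6% and 71.7%. The median member had 49.7%, 72.6% and 76.2%.

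**Figure D5:**
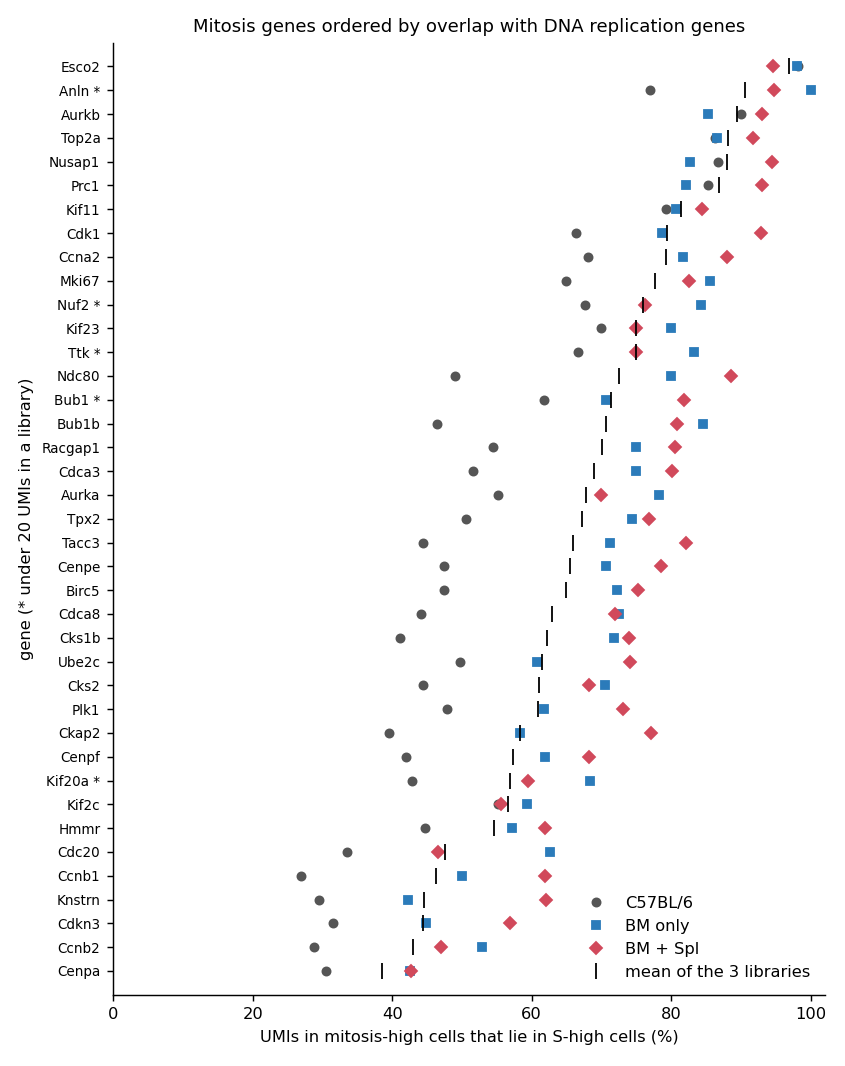
Part of each member's UMIs in mitosis-high cells that lay in S-high cells in percent (x axis) for the 39 mitosis genes (y axis), ordered by the mean of the 3 libraries, with circles for C57BL/6, squares for BM only and diamonds for BM + Spl. Esco2 lies at the top with a mean of 96.9% and Cenpa at the bottom with 38.6%, and C57BL/6 lies left of the other libraries for most genes.

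Other cell cycle lists were compared in the same way, over all cells and with genes of 100 or more UMIs, of which 5.98% of all tested were at least 1.5-fold higher in BM + Spl and 6.58% lower. Of 34 further genes of the G2 and M phases, 9 were at least 1.5-fold higher in BM + Spl than in BM only and 0 lower, with a median of 0.44. They ranged from Spc25, a partner of Ndc80 (0.92), to the ubiquitin ligase G2e3 (-0.20). Of 43 DNA replication genes 5 were higher and 0 lower, with a median of 0.31 and E2f8 (0.64) at the top. The 8 activators of mitotic transcription had a median of 0.23, with 0 past 1.5-fold, from Foxm1 (0.57), a factor that binds mitotic promoters, to the MuvB subunit Lin54 (-0.14). Of 15 inhibitors of the cell cycle, Cdkn2a (0.82) and Fbxo5 (0.63), an inhibitor of the anaphase-promoting complex, were higher and Btg2 (-0.74) lower, with a median of 0.09. Of 8 G1 cyclins and related genes Ccnd1 (0.78) was higher, and Ccnd3 was at -0.43. In the NKT2 gate 1 inhibitor was at least 1.5-fold lower in BM + Spl, and 0 genes with 100 or more UMIs passed 1.5-fold in the other 4 lists. Of all 9469 genes tested in that gate, only 1.07% were at least 1.5-fold higher, and the share that was lower is not given here.

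Outside the 39, the genes most concentrated in mitosis-high over other thinned cells, as a mean log2 fold over the 3 libraries among genes with 100 or more UMIs in each, were Hist1h1b (5.70), Hist1h2ap (5.31), Pclaf (5.23), Spc24 (5.05), Hist1h2ae (4.92), Rrm2 (4.67), Fbxo5 (4.48), Hist1h2bj (4.29), Hist1h2ag (4.28) and Clspn (3.95). Of these 10, 5 are replication-dependent histone genes, which share near-identical sequences and are uncertain as single genes. Mitosis-high cells had fewer CPM of Nkg7, a granule gene, than other cells, with log2 differences of -2.57, -1.80 and -1.21 in C57BL/6, BM only and BM + Spl. Zbtb16, the PLZF factor of iNKT cells, was lower in mitosis-high cells in C57BL/6 (-0.51, -0.72 to -0.31) and higher in BM only (0.66, 0.33 to 0.97) and BM + Spl (0.40, 0.17 to 0.63). Other lineage genes did not all follow Nkg7 and Zbtb16. In BM + Spl the NKT1 genes Cxcr3 (-0.58) and Il2rb (-0.37) were lower too, but Tbx21 was at 0.29 (-0.31 to 0.84). The NKT2 genes Gata3 (-0.09), Il4 (-0.22), Il17rb (-0.0013) and Pdcd1 (-0.17) had intervals there that include 0.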

How the data were processed

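The authors deposited, per the file headers, 1 matrix of UMI counts per gene and cell for each of 3 libraries, made with Cell Ranger (3.0.2 for C57BL/6 and 7.0.0 for the transplant libraries) and not normalized. The submitters' processing notes also name Seurat 4.0.2. Counts were used as deposited. Cells were kept, gated and thinned to 2700 UMIs as stated above, with a fixed random seed, and levels are CPM over the 30406 gene IDs in all 3 libraries. Gene ratios were compared among genes with 100 or more UMIs over both groups; a call is a ratio of at least 1.5-fold. A gene at 0 in a group was set to 3 UMIs for medians. With 1 library per condition no test was run. The 43 DNA replication genes and 35 other G2 and M genes, the gates and the 39 members were chosen with earlier results of these data known. All members and, of each other list, the genes with the highest and lowest ratio are named, with the 10 genes most concentrated in mitosis-high cells; other named genes were picked after their values were seen. Cells with markers of NKT17 were set aside before the NKT1 and NKT2 gates; their results, and the lowest DNA replication gene, are not reported here. Depth was 34799890 to 58794317 UMIs per library in the kept cells. The ratio and share intervals were tested on simulated counts drawn independently, so the test does not cover UMIs that come together in 1 dividing cell. Python 3.11.15, numpy 2.4.6, scipy 1.17.1, pandas 2.3.3 and matplotlib 3.10.9 were used.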

Additional observations from a re-analysis of the deposited data

Results flagged for a closer look

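Signal in cells that the comparisons leave out stood above that of the kept cells. The 18 C57BL/6 cells with 6000 or more genes had 3275 CPM summed over the 39 mitosis genes, against 1099 in the kept cells of that library, and the 2 such cells of BM only had 2519 against 635.5. All of these cells had a UMI of 5 or more members before thinning, at median depths of 47865 and 35930 UMIs, and whether they are dividing cells or doublets was not tested.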

How the results depend on the processing

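No paired analysis was possible because each condition has 1 library. Of 54 alternative values, 2 of them chosen after seeing the data, 23 stayed within the counting interval of the value reported and 31 moved past it. Of the log2 differences among the 54 alternatives 0 changed sign, while shares in percent have no sign to change. The differences in NKT2 and Foxp3+ shares between the transplant libraries were not among the 54. Both had the reverse sign with gates set on thinned counts. Without the 6% of cells with the most UMIs, the median member log2 difference of BM + Spl over BM only was 1.07 in all cells and 0.96 in NKT2 cells, that of BM only over C57BL/6 was -1.13, and the mitosis-high shares were 6.79% in C57BL/6, 2.15% in BM only and 5.01% in BM + Spl; mitosis-high cells are deeper than others, and the cause was otherwise not tested. BM only over C57BL/6 was -0.82 with all deposited cells, -0.85 with thinned cells, -0.93 with median-of-ratios scaling and -1.04 with totals that leave out mitochondrial and ribosomal protein genes. In NKT2 cells, BM + Spl over BM only was 0.11 with thinned cells and 0.26 with gate limits doubled. The shares in C57BL/6, BM only and BM + Spl were 12.9%, 6.37% and 10.2% with 3 or more members, 5.57%, 2.53% and 4.41% with 8 or more, 5.76%, 2.501% and 4.29% at 1500 UMIs and 19.7%, 6.78% and 11.98% without thinning, by construction of the limits. The NKT2 share over the NKT1 share in BM + Spl was 1.01 with gates set on thinned counts. Those gates left 279, 90 and 216 mitosis-high cells of C57BL/6, BM only and BM + Spl ungated, against 34, 24 and 53 with the main gates. Mitosis-high cells were S-high in 66.5%, 85.8% and 81.7% with 3 or more DNA replication genes and 33.0%, 61.9% and 60.9% with 8 or more. Depth limits the Cd8b1+ and Siglech+ gates, where 13 or fewer mitosis-high cells of a transplant library set the share.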

Other observations

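The Siglech, Cd8b1 and Foxp3 gates had limits of 2, 2 and 1 UMIs. What the cells are that reached more than 1 of these limits was not tested. Such cells numbered 92 in BM only and 278 in BM + Spl after thinning. Of these 0 and 14 were mitosis-high, the second a share of 5.04% (2.78 to 8.30), with an interval that includes the 7.02% of that library as a whole. For BM only, 0 of 92 allows a share of up to 3.93% (97.5% one-sided Clopper-Pearson bound).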
